A study of Mus musculus with 6 samples.

Results

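Collagen chains, laminin chains and the proteins that build or crosslink a basement membrane were followed in liver sinusoidal endothelial cells (LSECs) from *Txnip-/-* and WT mice. The genes were taken by symbol. Every collagen chain gene (Col, number, a, number) and laminin chain gene (Lam, a, b or c, number) was included, together with *Nid1*, *Nid2*, *Hspg2*, *Agrn*, *Fn1*, *Sparc*, *Bgn*, *Plod1*, *Plod2*, *Plod3*, *P4ha1*, *P4ha2*, *Lox* and *Loxl2*. Of the 23282 rows in each count file 69 matched, and 31 of these averaged at least 10 counts over the 6 libraries. The libraries came from LSECs of 3 *Txnip-/-* samples, which lack TXNIP in the whole animal on a C57BL/6J background, and 3 WT (C57BL/6J) samples. The cells had been enriched on a density gradient and with anti-CD146 magnetic beads. The study's methods describe culture of the selected cells. The sources used here do not say whether the RNA was taken before or after culture. The sources used here do not give the age, sex or diet of the mice behind these libraries, nor whether each library came from a separate mouse, so p-values measure the spread between these libraries, which may be technical.

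A basement membrane is a thin sheet of matrix under endothelium and epithelium. Laminins, each a trimer of an alpha, a beta and a gamma chain, polymerize at the cell surface, type IV collagen trimers form a second network, and nidogens, perlecan and agrin join the layers. LSECs are fenestrated and normally lack an organized basement membrane, and deposition of such a membrane with loss of fenestrae is known as sinusoidal capillarization. Collagen chains need prolyl and lysyl hydroxylases inside the cell and lysyl oxidases outside it to become stable fibres.

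The most abundant chains of the type IV network, *Col4a1* and *Col4a2*, are encoded head to head on chromosome 8 of GRCm38 (mm10), where *Col4a1* (11198423 to 11312826) runs on the minus strand and *Col4a2* (11312805 to 11449287) on the plus strand. Their annotated starts overlap by 22 bases. This stretch is shown because it is common to both start regions, read 5′ to 3′ on the *Col4a2* strand from the RefSeq windows of GRCm38.p6, at chr8:11312805-11312826, with a GGGCGG motif in capitals.
Col4a1 and Col4a2 start region: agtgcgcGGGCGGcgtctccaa
In windows of 300 bases (250 before to 50 after the start), searched on both strands, GGGCGG had 1 match for *Col4a1* and 3 for *Col4a2*, and 35.7% of all 32851 windows held it. CCAAT had 1 match in each window and was held by 37.4% of all windows, and TATAAA had 0 matches in both, against 13.6% of all windows. The windows of the pair overlap, so their matches are not independent.

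QuantSeq yields reads from the 3′ end of each transcript, so a count does not grow with transcript length. Levels are given as CPM, that is, counts scaled to a common library size with TMM factors. The libraries held 9147764 to 10193952 counts, and 3 counts, taken as the floor of detection, stood for 0.286 to 0.335 CPM. *Txnip* had 191 to 269 counts in the *Txnip-/-* libraries and 1901 to 2019 in the WT libraries. Reads of the ribosomal RNA precursor made up 10.03% and 9.68% of counts in WT replicates 1 and 2, which set this pair apart, against 16.8% to 18.6% in the remaining libraries. Over genes averaging at least 10 counts, the raw counts of WT replicate 3 were nearer to those of the *Txnip-/-* libraries (chi-square per degree of freedom 13.3 to 17.1) than to those of WT replicates 1 and 2 (37.0 and 40.2). This distance includes the precursor reads and was not computed without them. Values with a term for WT replicates 1 and 2 are given beside several of the genes it moved. With this term WT replicate 3 is the only WT library compared with the *Txnip-/-* libraries, so it is not a batch correction. All 14 LSEC markers checked were detected, with a summed level of 4774 to 5199 CPM in *Txnip-/-* and 5515 to 7301 CPM in WT LSECs. Much of that gap was *Lyve1*, at 1475, 1642 and 1976 CPM in *Txnip-/-* and 3482, 3780 and 1520 CPM in WT libraries. Of the 14, 0 had a positive log2 fold change, and 2 (*Stab1* and *Mrc1*) were lower by the test described next. *Stab2* (log2 fold change -0.36, adjusted p = 0.0448, edgeR) missed only the fold threshold of that test. Of 13 Kupffer cell and macrophage markers 12 were tested, and 0 had a positive log2 fold change. By the same test 11 were called lower in *Txnip-/-* libraries, where 0.932% of all tested genes were. The 13 summed to 306 to 340 CPM in *Txnip-/-* and 742 to 777 CPM in WT libraries. Portal and central vein endothelial markers summed to 303 to 342 CPM in *Txnip-/-* and 292 to 315 CPM in WT libraries, and 1 of 6 tested, *Rspo3*, was called higher. Hepatocyte markers summed to 60.4 to 64.9 against 49.2 to 51.0 CPM and cholangiocyte markers to 18.6 to 23.0 against 10.4 to 13.96 CPM, while lymphocyte and neutrophil markers reached at most 1.63 CPM in any library.

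No collagen, laminin or basement membrane gene passed the threshold for differential expression. The test was edgeR's quasi-likelihood test over 11583 genes with Benjamini-Hochberg adjustment, and a gene was called when its adjusted p was under 0.05 and its fold change above 1.3. Of the 31 genes averaging at least 10 counts, 30 entered the test and 0 were called, against a background of 1.44% of all tested genes (0.509% higher and 0.932% lower in *Txnip-/-* LSECs). DESeq2 and limma-trend also called 0. The smallest adjusted p was 0.0902 (edgeR), for *Lamb1*. Without adjustment, 6 of the 30 (20.0%) had a p under 0.05 in the edgeR test, namely *Lamb1*, *Lama4*, *Plod2*, *Col1a2* and *Lox*, which were higher, and *Col13a1*, which was lower. This compares with all tested genes, of which 11.5% had such a p (5.48% higher and 6.05% lower). The libraries of the genotypes did not overlap for 7 genes (23.3%), 5 higher and 2 lower in *Txnip-/-* libraries, where 17.4% of all tested genes did not overlap (8.43% higher and 8.94% lower). *Lox*, which is in both counts, entered the test only through its *Txnip-/-* libraries.

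The 30 tested genes had 17 positive and 13 negative log2 fold changes and a median of 0.028, beside a median of -0.000028 over all genes tested. Their median absolute log2 fold change was 0.31, against 0.17 over all tested genes. Together, the 69 genes took 0.813% to 0.822% of raw counts in *Txnip-/-* and 0.891% to 0.919% in WT libraries. These totals include the ribosomal RNA precursor, whose share differed between libraries. On the TMM scale the 69 genes summed to 8308, 8481 and 8462 CPM in *Txnip-/-* and 8721, 8700 and 9144 CPM in WT libraries. *Sparc* alone gave 53.2% to 56.0% of that sum and *Col4a1* 20.5% to 22.9%. Without *Sparc*, *Col4a1* and *Col4a2* the summed level was 1400, 1383 and 1388 CPM in *Txnip-/-* libraries and 1335, 1287 and 1462 CPM in WT libraries, so the groups overlapped.

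**Figure D1:**
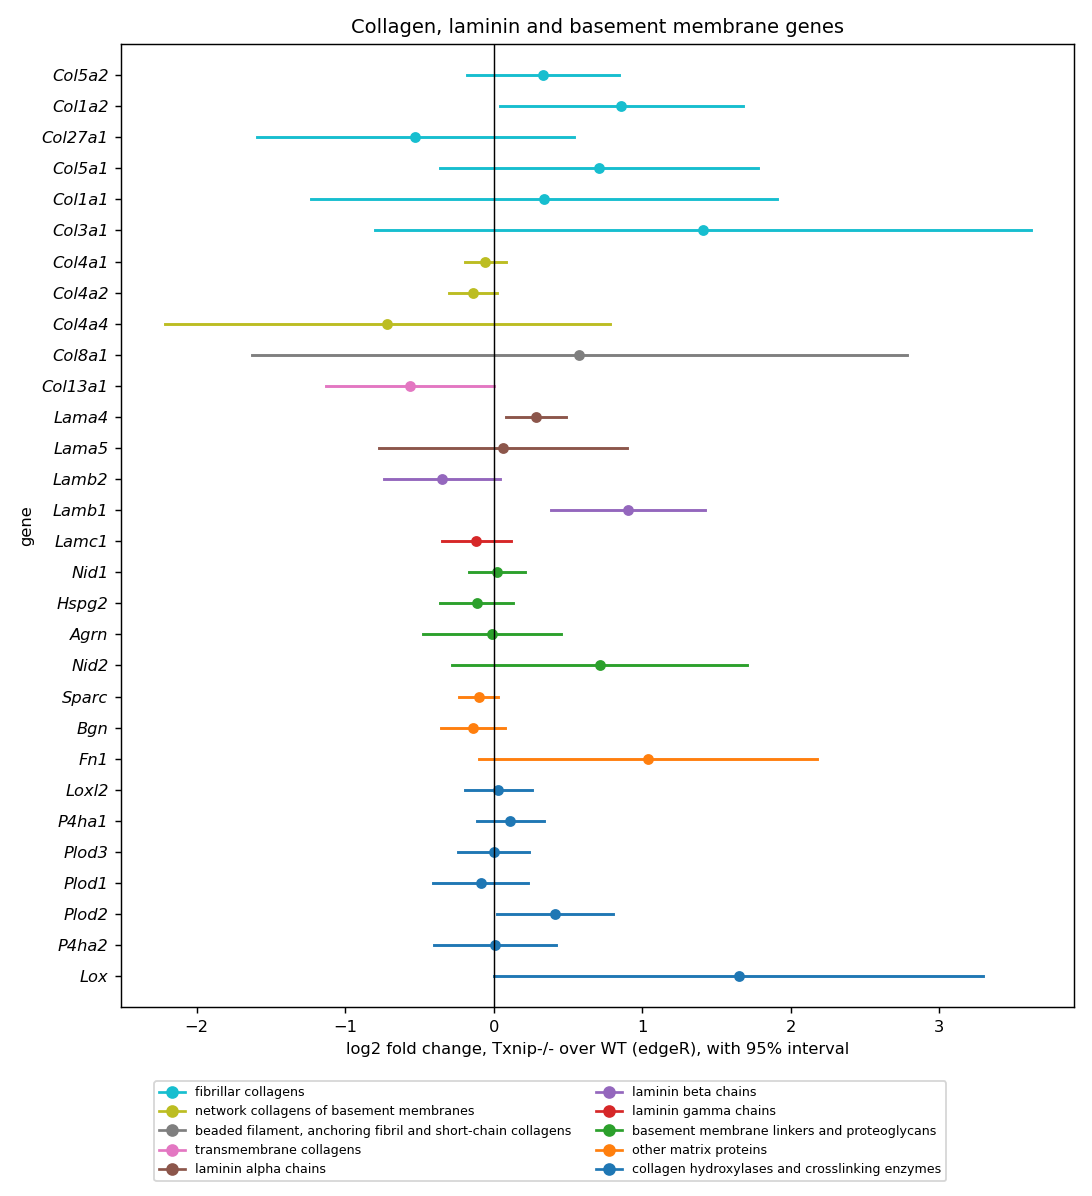
Log2 fold change of each tested collagen, laminin and basement membrane gene (x axis, *Txnip-/-* over WT, edgeR) with its 95% interval as a line, by gene (y axis) and coloured by role. The interval of *Lamb1* runs from 0.38 to 1.42 and that of *Lama4* from 0.084 to 0.49, while the intervals of *Col4a1*, *Col4a2* and *Sparc* are narrow and cross 0.

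The type IV collagen chains that LSECs made in quantity were *Col4a1* and *Col4a2*, whose products assemble into the common trimer of the vascular basement membrane. *Col4a1* stood at 1844, 1880 and 1866 CPM in *Txnip-/-* replicates 1 to 3 and at 1995, 1943 and 1877 CPM in WT replicates 1 to 3. The highest *Txnip-/-* value and the lowest WT value differed by little and the ranges overlapped. The means were 1863 ± 18.1 CPM and 1938 ± 59.3 CPM (SD, n = 3 each), a log2 fold change of -0.057 (SE 0.065, 95% interval -0.19 to 0.081, adjusted p = 0.831, edgeR).

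*Col4a2* stood at 647, 680 and 627 CPM in *Txnip-/-* and at 754, 712 and 687 CPM in WT libraries. All 3 *Txnip-/-* values lay below the lowest WT value, but the gap between 680 and 687 CPM was small. The log2 fold change was -0.14 (SE 0.077, 95% interval -0.30 to 0.022, adjusted p = 0.520, edgeR). For this pair a difference as large as the fold threshold of 1.3 lay outside both 95% intervals.

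The proportion of the chains was compared within each library. There were 2.85, 2.77 and 2.98 *Col4a1* counts per *Col4a2* count in *Txnip-/-* libraries and 2.65, 2.73 and 2.73 in WT libraries, a ratio that no scaling of libraries alters. The means were 2.86 ± 0.105 and 2.70 ± 0.050 (SD, n = 3 each), and the groups did not overlap, but the exact two-sided permutation p was 0.1, the smallest that 3 against 3 libraries allow. This ratio was chosen after its values were seen.

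Of the other type IV chains, *Col4a4*, a chain of specialised membranes such as that of the glomerulus, was near the limit of detection, at 1.005, 1.43 and 0.96 CPM in *Txnip-/-* and 1.75, 2.48 and 1.38 CPM in WT libraries (log2 fold change -0.72, SE 0.71, adjusted p = 0.787, edgeR). Its partner *Col4a3* had 0, 8 and 6 counts in *Txnip-/-* and 14, 10 and 2 in WT libraries, with overlap. *Col4a6* had 11, 3 and 7 counts against 1, 0 and 0. *Col4a5* had 0 counts in all 6 libraries. These 3 genes were too low to enter the test.

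**Figure D2:**
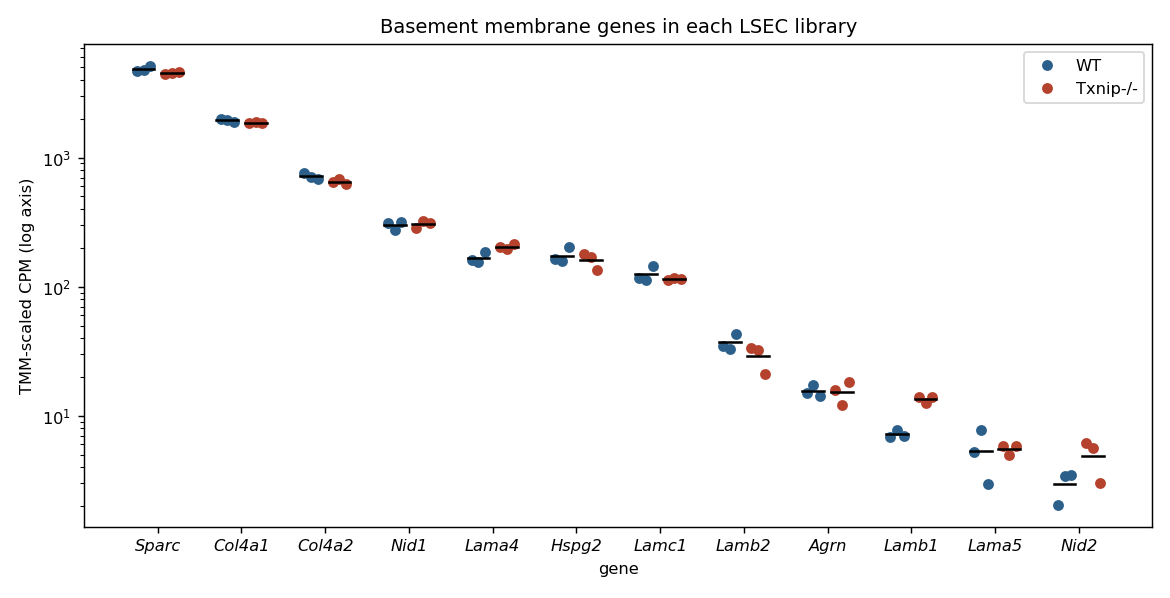
TMM-scaled CPM (y axis, log scale) of the core basement membrane genes and *Sparc* (x axis) in each library, WT in blue and *Txnip-/-* in red, with a bar at each group's mean. The order of levels from *Sparc* (4417 CPM and above) to *Nid2* (6.14 CPM and below) is alike in both genotypes apart from close neighbours such as *Lama4* and *Hspg2*, and the *Lamb1* libraries stand at 12.6 to 13.96 CPM against 6.81 to 7.81 CPM.

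Among the laminin genes, *Lamb1* and *Lama4* were above the WT level in every *Txnip-/-* library, though neither passed the threshold, and the others overlapped. *Lamb1* (chromosome 12, 31265234 to 31329644, plus strand, GRCm38), the beta 1 chain of many embryonic and vascular laminins, had 125, 124 and 130 counts in *Txnip-/-* libraries and 70, 82 and 66 counts in WT libraries. On the CPM scale these were 13.96, 12.6 and 13.9 against 6.81, 7.81 and 6.98, so every *Txnip-/-* library was above every WT library by a wide gap. The means were 13.5 ± 0.744 and 7.20 ± 0.534 CPM (SD, n = 3 each), and the log2 fold change was 0.90 (SE 0.25, 95% interval 0.38 to 1.42, adjusted p = 0.0902, edgeR). It was between 0.86 and 0.97 when any single library was omitted, and 0.95 with a term for WT replicates 1 and 2.

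*Lamb2* (chromosome 9, 108479736 to 108490530, plus strand), the beta 2 chain, which can take the place of beta 1 in a laminin trimer, was more abundant and pointed the other way. It stood at 33.7, 32.4 and 20.95 CPM in *Txnip-/-* and 34.7, 33.2 and 43.3 CPM in WT libraries. *Txnip-/-* replicate 3 was the low one and WT replicate 3 the high one, and 33.7 against 33.2 CPM made the groups overlap. The log2 fold change was -0.35 (SE 0.19, 95% interval -0.74 to 0.041, adjusted p = 0.494, edgeR), and -0.58 with a term for WT replicates 1 and 2.

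The share of *Lamb1* among beta chain transcripts was higher in every *Txnip-/-* library. *Lamb1* gave 29.3%, 28.1% and 39.9% of *Lamb1* plus *Lamb2* counts in *Txnip-/-* libraries and 16.4%, 19.1% and 13.9% in WT libraries. The means were 32.4% ± 6.50 and 16.5% ± 2.59 (SD, n = 3 each), with no overlap. The exact two-sided permutation p was 0.1, the smallest possible here, and this share too was chosen after its values were seen.

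**Figure D3:**
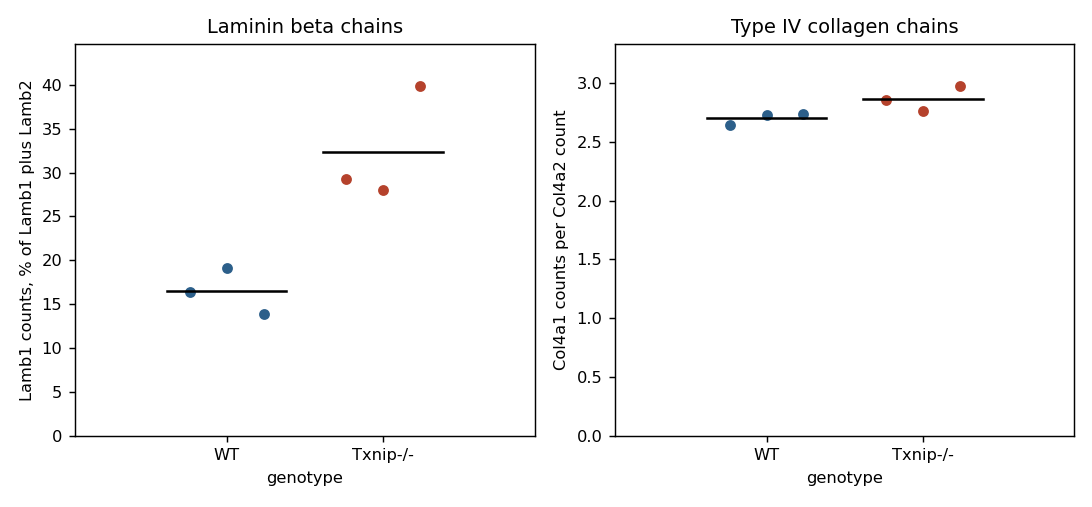
Left, *Lamb1* counts as a percentage of *Lamb1* plus *Lamb2* counts (y axis) by genotype (x axis), and right, *Col4a1* counts per *Col4a2* count (y axis) by genotype (x axis). Points are libraries, bars are means, and both axes start at 0, which shows the beta chain share at 28.1% to 39.9% against 13.9% to 19.1% and the much closer collagen ratios at 2.77 to 2.98 against 2.65 to 2.73.

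*Lama4* (chromosome 10, 38965515 to 39110188, plus strand) encodes the alpha 4 chain of the endothelial laminins. It stood at 203, 195 and 213 CPM in *Txnip-/-* libraries and 161, 155 and 185 CPM in WT libraries. The groups did not overlap, and WT replicate 3 was the WT library nearest to the *Txnip-/-* group. The means were 204 ± 8.87 and 167 ± 16.1 CPM (SD, n = 3 each), with a log2 fold change of 0.29 (SE 0.096, 95% interval 0.084 to 0.49, adjusted p = 0.205, edgeR). The value depended on WT replicates 1 and 2, the libraries low in ribosomal RNA precursor reads. With a term for these libraries it was 0.14, and without WT replicate 3 it was 0.37 with an adjusted p of 0.0250 (edgeR), still under the fold threshold.

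*Lama5*, the alpha 5 chain, which marks mature endothelial basement membranes, was scarce beside *Lama4*. It stood at 5.81, 4.99 and 5.88 CPM in *Txnip-/-* and 5.26, 7.72 and 2.96 CPM in WT libraries, and the *Txnip-/-* values lay inside the WT range (log2 fold change 0.062, SE 0.40, adjusted p = 0.972, edgeR). It was 0.91 once a term for WT replicates 1 and 2 left WT replicate 3 as the reference (adjusted p = 0.503, edgeR). *Lama4* made up 97.3% ± 0.148 of *Lama4* plus *Lama5* counts in *Txnip-/-* and 96.8% ± 1.59 in WT libraries (SD, n = 3 each; exact two-sided permutation p = 0.7).

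*Lamc1*, the gamma 1 chain shared by most laminins, stood at 112, 117 and 114 CPM in *Txnip-/-* and 117, 112 and 145 CPM in WT libraries. Only WT replicate 3 was apart, and the log2 fold change was -0.12 (SE 0.11, adjusted p = 0.768, edgeR), or -0.33 with the same term (adjusted p = 0.184, edgeR). Further laminin genes were at the margin of detection. *Lama3* had at most 15 counts in a library, *Lama2* at most 9, *Lama1* at most 4, and *Lamb3* and *Lamc3* had 0 counts in all 6.

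Of the 4 linkers of the membrane, 2 had a positive and 2 a negative log2 fold change, and *Nid2* was measured with wide error. *Nid1*, nidogen 1, which bridges laminin and type IV collagen, stood at 286, 323 and 310 CPM in *Txnip-/-* and 312, 274 and 318 CPM in WT libraries, with broad overlap. Its log2 fold change was 0.023 (SE 0.090, 95% interval -0.17 to 0.21, adjusted p = 0.954, edgeR), an interval that excludes the fold threshold in either direction. *Hspg2*, which encodes the heparan sulfate proteoglycan perlecan, stood at 177, 168 and 136 CPM against 163, 157 and 201 CPM. *Txnip-/-* replicate 3 was its lowest library and WT replicate 3 its highest, as for *Lamb2*, and the log2 fold change was -0.11 (SE 0.12, adjusted p = 0.798, edgeR), or -0.33 with a term for WT replicates 1 and 2 (adjusted p = 0.247, edgeR).

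*Agrn*, agrin, another heparan sulfate proteoglycan, was lower in level, at 15.97, 12.03 and 18.2 CPM in *Txnip-/-* and 15.0, 17.2 and 14.2 CPM in WT libraries (log2 fold change -0.0089, SE 0.22, adjusted p = 0.993, edgeR). *Nid2*, nidogen 2, stood at 6.14, 5.61 and 2.99 CPM against 2.04, 3.43 and 3.49 CPM. *Txnip-/-* replicate 3 fell among the WT values, and the log2 fold change was 0.72 (SE 0.47, adjusted p = 0.616, edgeR), or 0.49 with a term for WT replicates 1 and 2. The 3′ end of *Nid2* overlaps an exon of *Rtraf* on the opposite strand, and the strand setting of the counting is not given in the sources used here, so reads of the pair may not be told apart.

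*Sparc*, a collagen-binding glycoprotein secreted at sites of matrix assembly, was the most abundant transcript of the set. It stood at 4417, 4538 and 4581 CPM in *Txnip-/-* and 4637, 4759 and 5118 CPM in WT libraries, without overlap. The gap between the groups was smaller than the spread of the WT libraries, and the means of 4512 ± 85.4 and 4838 ± 250.004 CPM (SD, n = 3 each) gave a log2 fold change of -0.10 (SE 0.062, 95% interval -0.23 to 0.029, adjusted p = 0.580, edgeR). *Bgn*, the small leucine-rich proteoglycan biglycan, stood at 117, 107 and 118 CPM against 118, 119 and 140 CPM (log2 fold change -0.14, SE 0.10, adjusted p = 0.676, edgeR).

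*Fn1*, fibronectin, which liver endothelium and stellate cells lay down in injury, was low here. It had 29, 65 and 47 counts in *Txnip-/-* and 10, 40 and 23 counts in WT libraries, which was 3.24, 6.63 and 5.02 CPM against 0.97, 3.81 and 2.43 CPM. The groups overlapped, and the log2 fold change was 1.04 with a wide 95% interval from -0.095 to 2.18 (SE 0.54, adjusted p = 0.484, edgeR). An exon of *Apol7d* lies opposite its 3′ end, with the same limit as for *Nid2*.

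The 7 enzymes that modify collagen had 5 positive and 2 negative log2 fold changes, and those of *Plod2* and *Lox* lay farthest from 0. *Loxl2*, a lysyl oxidase active on type IV collagen, was the highest of them at 119, 105 and 116 CPM in *Txnip-/-* and 105, 125 and 101 CPM in WT libraries (log2 fold change 0.033, SE 0.11, adjusted p = 0.947, edgeR). *P4ha1*, a catalytic subunit of prolyl 4-hydroxylase, stood at 82.0, 74.7 and 77.0 CPM against 72.4, 69.3 and 74.5 CPM, groups that did not overlap but were parted by a narrow gap (log2 fold change 0.11, SE 0.11, adjusted p = 0.776, edgeR). Another catalytic subunit, *P4ha2*, and the lysyl hydroxylases *Plod1* and *Plod3* had log2 fold changes of 0.011, -0.088 and -0.00043 (adjusted p = 0.989, 0.899 and 0.999, edgeR).

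*Plod2* (chromosome 9, 92542223 to 92608428) encodes the lysyl hydroxylase that acts on collagen telopeptides and sets the type of crosslink in fibrotic matrix. It stood at 30.1, 20.999 and 24.6 CPM in *Txnip-/-* and 19.7, 18.1 and 19.1 CPM in WT libraries. The WT values were tight and all below the *Txnip-/-* values, of which replicate 2 came nearest. The means were 25.2 ± 4.61 and 19.0 ± 0.796 CPM (SD, n = 3 each), and the log2 fold change was 0.41 (SE 0.19, 95% interval 0.020 to 0.80, adjusted p = 0.400, edgeR).

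*Lox*, lysyl oxidase, which starts crosslinking of fibrillar collagen and elastin, had 24, 21 and 30 counts in *Txnip-/-* and 5, 19 and 2 counts in WT libraries. On the CPM scale these were 2.68, 2.14 and 3.21 against 0.49, 1.81 and 0.21. The groups did not overlap, yet WT replicate 2 reached nearly the *Txnip-/-* level and WT replicate 3 was below the floor of 3 counts. The log2 fold change was 1.65 (SE 0.78, 95% interval 0.00029 to 3.30, adjusted p = 0.433, edgeR), and 3.58 with a term for WT replicates 1 and 2. It was 1.21 without WT replicate 3 and 2.88 without WT replicate 2, so its size rests on single WT libraries. *Lox* passed the filter of the test only through its *Txnip-/-* libraries. A filter on a mean of 10 counts kept it as well.

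Fibrillar collagens, the chains of interstitial fibres, were minor transcripts in these LSEC preparations. Of 11 such genes 6 averaged at least 10 counts, and 5 of these 6 had a positive log2 fold change, with a median of 0.52, beside the median of -0.000028 over all genes tested. None was called. *Col5a2*, a type V chain that controls fibril diameter, was the highest, at 14.2, 20.6 and 13.7 CPM in *Txnip-/-* and 14.3, 14.5 and 9.63 CPM in WT libraries. *Txnip-/-* replicate 2 was high and WT replicate 3 low, the rest lay together, and the log2 fold change was 0.33 (SE 0.24, adjusted p = 0.667, edgeR), or 0.75 with a term for WT replicates 1 and 2 (adjusted p = 0.319, edgeR).

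*Col1a2* (chromosome 6, 4504814 to 4541544), the alpha 2 chain of type I collagen, had 48, 79 and 89 counts in *Txnip-/-* and 48, 26 and 52 counts in WT libraries. These were 5.36, 8.05 and 9.52 CPM against 4.67, 2.48 and 5.50 CPM, and *Txnip-/-* replicate 1 lay below WT replicate 3. The log2 fold change was 0.86 (SE 0.39, 95% interval 0.041 to 1.68, adjusted p = 0.401, edgeR), and 0.47 with a term for WT replicates 1 and 2. Its partner chain *Col1a1* averaged 1.92 ± 0.747 CPM in *Txnip-/-* and 1.52 ± 1.03 CPM in WT libraries (SD, n = 3 each), with a log2 fold change of 0.34 (adjusted p = 0.918, edgeR). The estimate for *Col1a1* turned negative without WT replicate 2 and with the term for WT replicates 1 and 2.

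*Col3a1*, type III collagen, had 1, 28 and 21 counts in *Txnip-/-* and 9, 11 and 0 counts in WT libraries, a spread within each genotype wider than the difference between them (log2 fold change 1.41, SE 1.05, adjusted p = 0.674, edgeR). *Col5a1* had a log2 fold change of 0.71 (adjusted p = 0.663, edgeR), with an exon of *Gm13372* opposite its 3′ end, and *Col27a1* one of -0.53 (adjusted p = 0.777, edgeR).

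Markers of hepatic stellate cells and fibroblasts, the main makers of interstitial collagen in the liver, had a higher sum in the same libraries. The 16 markers summed to 112 to 127 CPM in *Txnip-/-* and 55.8 to 64.7 CPM in WT libraries. Of these, 11 were tested, 10 of the 11 were positive, and 3 were called higher, where 0.509% of all tested genes were. The 3 called were *Acta2*, smooth muscle actin (log2 fold change 1.47, adjusted p = 0.00677), *Tagln* (0.98, adjusted p = 0.00313) and *Dcn* (0.99, adjusted p = 0.00497, all edgeR). They made up most of the marker sum, *Tagln* alone 40.7 to 53.1 CPM in *Txnip-/-* and 21.4 to 29.1 CPM in WT libraries. The negative one was *Lhx2* (log2 fold change -0.063, adjusted p = 0.983, edgeR). *Colec11*, too low to be tested, had 10, 7 and 5 counts in *Txnip-/-* and 7, 17 and 7 in WT libraries. *Hand2*, a transcription factor of stellate cells, had 54, 75 and 69 counts in *Txnip-/-* and 23, 11 and 26 in WT libraries, without overlap (log2 fold change 1.80, adjusted p = 0.0577, edgeR). The mesenchymal receptors *Pdgfrb* and *Pdgfra* had log2 fold changes of 0.88 and 0.83 (adjusted p = 0.705 and 0.701, edgeR). None of the 16 was at 0 in all libraries. There were 8 to 19 counts of *Lrat* in *Txnip-/-* and 0 to 9 in WT libraries, 0 to 35 and 0 to 13 counts of *Reln*, and at most 3 counts of *Gfap* in any library. *Des* did not part the genotypes, at 2.34 to 3.16 CPM in *Txnip-/-* and 1.85 to 3.49 CPM in WT libraries. The part of these cells in the values of the fibrillar collagens, *Fn1*, *Lox*, *Lamb1*, *Nid2* and *Plod2* was not tested. Nor was their part in the share of *Lamb1* among beta chain transcripts. In bulk samples more cells of a type and more RNA per cell cannot be told apart.

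**Figure D4:**
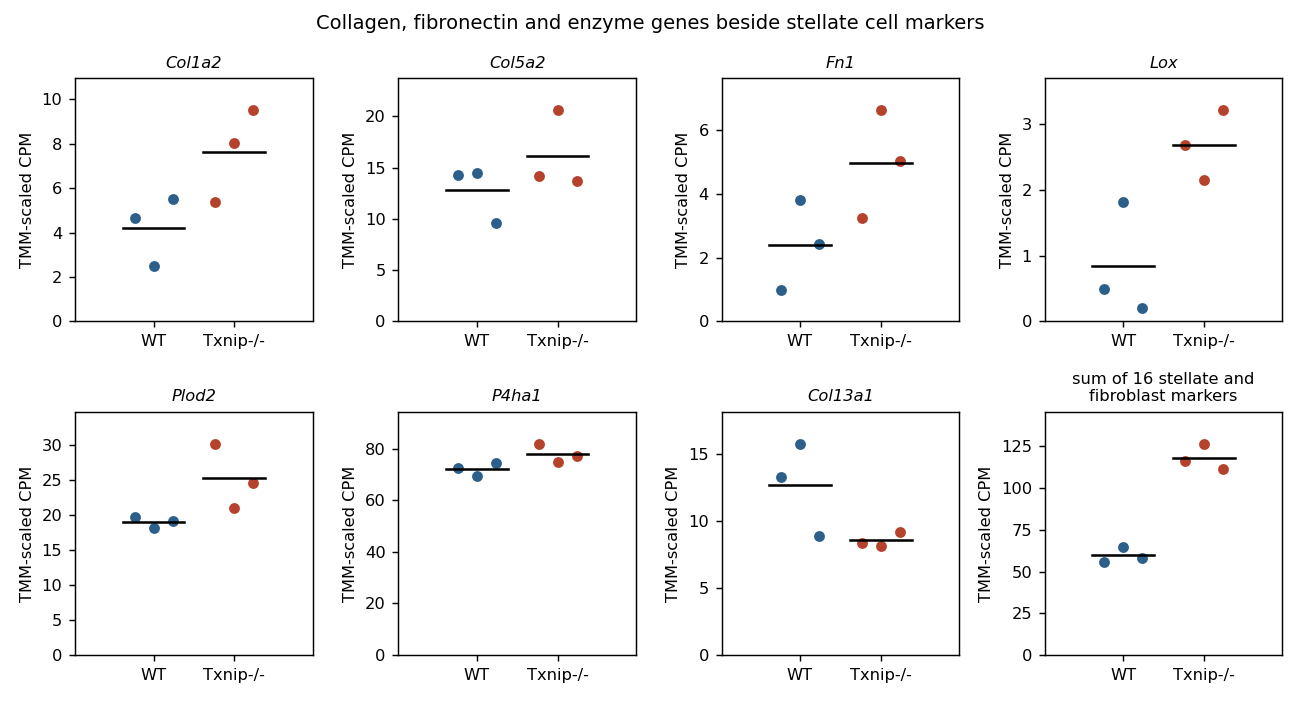
TMM-scaled CPM (y axes, from 0) of *Col1a2*, *Col5a2*, *Fn1*, *Lox*, *Plod2*, *P4ha1* and *Col13a1*, and the summed level of the 16 stellate cell and fibroblast markers, by genotype (x axes). Points are libraries and bars are means, and the marker sum parts the genotypes without overlap (112 to 127 against 55.8 to 64.7 CPM), while the libraries of *Col1a2*, *Col5a2*, *Fn1* and *Col13a1* overlap. Most of the marker sum came from *Tagln*, *Dcn* and *Acta2*.

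*Col13a1* (chromosome 10, 61838236 to 61979108), a collagen that spans the cell membrane and sits at adhesion sites, was the only gene of the set with a negative difference at an unadjusted p under 0.05. It had 75, 80 and 86 counts in *Txnip-/-* and 137, 166 and 84 counts in WT libraries, or 8.37, 8.15 and 9.19 CPM against 13.3, 15.8 and 8.88 CPM. WT replicate 3 lay at the level of the *Txnip-/-* libraries, which it also resembled in ribosomal RNA precursor reads (17.8% of its counts). The log2 fold change was -0.57 (SE 0.27, 95% interval -1.13 to -0.00081, adjusted p = 0.432, edgeR). With a term for WT replicates 1 and 2 it was -0.051, and without WT replicate 3 it was -0.77, so the value rests on which WT libraries enter.

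*Col8a1*, a short-chain collagen of vessel walls, had 11, 7 and 21 counts in *Txnip-/-* and 3, 0 and 24 counts in WT libraries. WT replicate 3 was the highest library, next to *Txnip-/-* replicate 3 (log2 fold change 0.58, SE 1.04, adjusted p = 0.903, edgeR). *Col18a1*, the source of endostatin and a component of vascular basement membranes, averaged exactly 10 counts, with 6, 20 and 12 against 9, 7 and 6, and did not pass the filter of the test. Just outside the limit of 10, *Col7a1*, the anchoring fibril collagen, averaged 9.67 counts.

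The other 38 genes averaged fewer than 10 counts, and none had more than 20 in any library. The highest fibril-associated collagen was *Col14a1*, with 20, 9 and 7 counts in *Txnip-/-* and 1, 3 and 13 in WT libraries. *Col15a1*, a collagen of capillary and muscle basement membranes, had 2 counts in 1 library and 0 in the others, and *Col6a1* and *Col6a2*, of the beaded filaments, at most 4 and 1. In 8 genes every library had 0 counts (*Col2a1*, *Col4a5*, *Col6a6*, *Col22a1*, *Col25a1*, *Col26a1*, *Lamb3* and *Lamc3*), which allows a level of up to 0.286 to 0.335 CPM, depending on the library. These limits cover counting error only, and apart from *Col7a1* (adjusted p = 0.910, edgeR) differences between genotypes were not tested in these 38 genes.

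Other genes of matrix assembly and collagen processing gave some calls. Of 61 such genes listed, 43 were tested, 26 with a positive and 17 with a negative log2 fold change (median 0.085, against -0.000028 over all genes tested), and 3 were called higher and 1 lower in *Txnip-/-* LSECs, where 0.509% and 0.932% of all tested genes were. *Dcn*, decorin, a proteoglycan that coats collagen fibrils, stood at 27.6, 32.5 and 31.8 CPM in *Txnip-/-* and 17.1, 14.2 and 14.8 CPM in WT libraries. It rose with a log2 fold change of 0.99 (SE 0.18, adjusted p = 0.00497, edgeR), and it is also 1 of the 16 stellate cell and fibroblast markers.

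*Tgm2*, transglutaminase 2, which crosslinks matrix proteins and is strong in endothelium, stood at 675, 596 and 670 CPM against 472, 439 and 505 CPM. Its means of 647 ± 44.0 and 472 ± 33.0 CPM (SD, n = 3 each) gave a log2 fold change of 0.45 (SE 0.084, adjusted p = 0.00753, edgeR). The call was lost without any of *Txnip-/-* replicates 1 and 3 and WT replicates 1 and 2. It was also lost with library totals alone, where the log2 fold change of 0.375 was under the fold threshold. With a term for WT replicates 1 and 2, the log2 fold change against WT replicate 3 was 0.36. *Tnc*, tenascin C, a matrix glycoprotein of remodelling tissue, stood at 25.0, 38.9 and 22.8 CPM against 15.8, 14.8 and 14.2 CPM. *Txnip-/-* replicate 2 was well above the others, and the log2 fold change of 0.96 (SE 0.21, adjusted p = 0.0270, edgeR) was 0.68 and no longer called without it, the call being lost as well without *Txnip-/-* replicate 1, WT replicate 1 or WT replicate 2. It was also lost with the term for WT replicates 1 and 2 (adjusted p = 0.110), the replicate block (adjusted p = 0.0507) and library totals alone (adjusted p = 0.0575, all edgeR).

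*P3h2*, a prolyl 3-hydroxylase that acts on type IV collagen, was the gene called lower. It had 0 counts in all 3 *Txnip-/-* libraries and 15, 14 and 17 counts in the WT libraries (adjusted p = 0.0388, edgeR). Taking 3 counts per *Txnip-/-* library as the limit, its level was at least 4.78-fold lower. With a mean of 7.67 counts, *P3h2* passed the filter only through its WT libraries, and a filter on a mean of 10 counts left it out. The call was lost when any library was omitted, with the replicate block (adjusted p = 0.135, edgeR) and in limma-trend (adjusted p = 0.182). Exons of *Gm4524* lie opposite its 3′ end.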

How the data were processed

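RNA from 3 *Txnip-/-* and 3 WT LSEC samples was made into QuantSeq 3′ mRNA-seq libraries and sequenced as single-end reads of 75 bases. The authors used Bowtie2 for alignment and Bedtools coverage for counting, in which both unique and multiple alignments entered. The deposited values are raw read counts per gene symbol, unnormalized, on mm10 per the submitters' processing notes. Tool versions, annotation and strand setting are not given in the sources used here. Because multiple alignments were counted, reads of near-identical genes may be shared.

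Counts were filtered with filterByExpr, TMM-scaled and fitted with genotype alone in edgeR 4.0.16 (R 4.3.3), using the quasi-likelihood test with Benjamini-Hochberg adjustment over 11583 of 23282 genes. The code was tested on simulated data. A standard error is the absolute log2 fold change over the square root of F, and intervals are 95%. Alternatives were RLE, upper-quartile or no scaling, other filters, DESeq2 1.42.0, limma-trend 3.58.1, a replicate block, each library left out, *Rn45s* left out, and a term for WT replicates 1 and 2. Library totals were 9147764 to 10193952 counts. WT replicates 1 and 2 differed by more than sampling noise (chi-square per degree of freedom 3.93), though less than other pairs within a genotype (8.32 to 40.2), and were kept as separate samples. Same-numbered libraries did not deviate together (correlations -0.030, 0.017 and -0.047). With 3 libraries per genotype this cannot exclude shared handling by replicate number. Exact permutation tests were used for 3 count ratios.

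The genes, roles, the list of 61 other matrix genes, and the marker lists (LSEC, portal and central vein endothelium, stellate cell and fibroblast, hepatocyte, Kupffer cell and macrophage, lymphocyte, neutrophil, cholangiocyte) were chosen with earlier results of these data known. Values by library are given for genes with an adjusted or unadjusted p under 0.05, the core basement membrane genes, and the highest gene of each role, and of the other matrix genes up to 10 with an adjusted p under 0.05. *Bgn*, *Fn1*, *P4ha1*, *Col4a4*, *Col4a3*, *Col4a6*, *Col3a1*, *Col18a1* and *Col7a1* were added after their values were seen. Coordinates are GENCODE M21 (GRCm38), which held all 69 genes. Of these, 49 had a RefSeq promoter window (GRCm38.p6). The fold threshold of 1.3 was read as linear.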

Additional observations from a re-analysis of the deposited data

How the results depend on the processing

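Over the alternatives to scaling, filter, model and libraries, 0 collagen, laminin or basement membrane genes were called, also with the replicate block and when any single library was omitted. At an unadjusted p alone the count was 6 of 30 (20.0%), where 11.5% of all tested genes had such a p (edgeR). Of the 19 genes tested that were named by rule, 12 kept their direction in all 16 settings and 0 passed the threshold in any. Without a composition scaling (library totals alone) the median of all genes was -0.082, and *Lama5* (-0.034), *Nid1* (-0.058) and *Loxl2* (-0.052) turned negative on the log2 scale. With a term for WT replicates 1 and 2, *Nid1* (-0.053) and *Col8a1* (-0.86) turned negative and *Agrn* (0.12) positive. With libraries left out in turn, signs changed for *Lama5* (-0.22 to 0.43), *Lamc1* (-0.19 to 0.0048), *Nid1* (-0.041 to 0.070), *Hspg2* (-0.19 to 0.0022), *Agrn* (-0.15 to 0.14), *Col8a1* (-0.012 to 3.16) and *Loxl2* (-0.027 to 0.13). The cause was not tested.

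Alternatives for the following counts were chosen after seeing the data. The term for WT replicates 1 and 2 leaves WT replicate 3 as the only WT reference. The 4 calls among other matrix genes became 2 with library totals alone, 2 with the replicate block, 2 with the term for WT replicates 1 and 2, 1 at a log2 fold change above 1.3, 11 at an unadjusted p alone, and 1 to 6 with a library left out. *Dcn* was called in every setting tested but the log2 limit of 1.3. The 6 genes at an unadjusted p were 3 by DESeq2, 6 by limma-trend, 4 with the replicate block, 10 with the term for WT replicates 1 and 2, and 2 to 6 with a library left out (2 without *Txnip-/-* replicate 3 or WT replicate 1, 3 without *Txnip-/-* replicate 2 or WT replicate 2). The 7 genes without overlap were 9 to 12 with a library left out (12 without *Txnip-/-* replicate 1 or WT replicate 3). With fewer libraries in a genotype, non-overlap is easier for any gene to reach, so the rise is no result about these genes. Shares over all tested genes were determined for the main fit alone. There, 11.5% had an unadjusted p under 0.05 (edgeR) and 17.4% did not overlap. Depth limits the genes under 10 counts, most of which the filter kept out of the test.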

Other observations

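Of the 43 tested genes of matrix assembly and collagen processing, 11 had an unadjusted p under 0.05 in the edgeR test. Of all tested genes, 11.5% had such a p (5.48% higher and 6.05% lower). Those of the 11 that were not called are given here, a choice made after their values were seen. All of those genes are positive, while 17 of the 43 were negative, among them the collagen chaperone *Fkbp14* (log2 fold change -0.42, adjusted p = 0.553), the basement membrane netrin *Ntn4* (-0.81, adjusted p = 0.664) and the endothelial *Mmrn2* (-0.099, adjusted p = 0.665, all edgeR), the last without overlap between genotypes. *Serpinh1*, the collagen chaperone HSP47, stood at 88.3, 109 and 73.3 CPM in *Txnip-/-* and 63.0, 62.8 and 60.8 CPM in WT libraries. All *Txnip-/-* libraries were above all WT libraries, and the log2 fold change was 0.54 (SE 0.13, adjusted p = 0.0519, edgeR). The proteoglycan *Vcan* had a log2 fold change of 0.87 (adjusted p = 0.126) and the matricellular gene *Postn* one of 0.82 (adjusted p = 0.154, both edgeR). The procollagen processing genes *Pcolce* (1.71, adjusted p = 0.264) and *Adamts2* (2.14, adjusted p = 0.419), the collagen chaperone *Fkbp10* (1.64, adjusted p = 0.305) and the transcription factor *Creb3l1* (0.30, adjusted p = 0.303, all edgeR) were also positive in log2 fold change. The genotypes overlapped for *Fkbp10*. *Adamts2* had 22, 11 and 13 counts in *Txnip-/-* and 8, 0 and 3 in WT libraries. With a mean of 9.5 counts, it passed the filter only through its *Txnip-/-* libraries. The sum of the stellate cell and fibroblast markers was higher in the same libraries, and the part of these cells in these values was not tested.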
